A study of Mus musculus with 10 samples.

Results

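Trace amine-associated receptors (TAARs) are the receptors of a small set of olfactory neurons, and 6 of their genes, Taar2, Taar3, Taar4, Taar5, Taar6 and Taar9, were followed here in the MOE (main olfactory epithelium), where the nose senses odours. Members were the probe sets that the platform annotation ties to 1 of these 6 symbols alone. There were 6 such probe sets, 1 for each gene, of 35556 on the array, and all 6 passed the filter that left 23194 probe sets for testing (at least 1 gene symbol, and an average log2 signal above 5). Of the 15 probe sets that name any Taar gene, those of Taar1 and of the near-identical Taar7 and Taar8 copies were kept apart.

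The tissue came from 5 week old mice. The 4 H2be-GF arrays came from mice of a transgenic line, derived from a founder and crossed to C57Bl/6, in which the promoter of olfactory marker protein (Omp) drives a FLAG-tagged copy of the histone variant H2BE in mature olfactory neurons, apart from a band of neurons near zone 2 that lacks it. The 6 WT arrays came from wild-type mice without the transgene, and their strain is not named in the labels. An array carries the RNA of a pool of mice, larger for H2be-GF than for WT, so that the p-values below measure the spread between pools. The labels assign no sex to an array. Xist, a noncoding RNA of the inactive X chromosome, stood at 11.69 or above on 5 arrays (H2be-GF 1 and 2, WT 1, 2 and 3) and at 4.61 or below on the other 5. Eif2s3y, a gene of the Y chromosome, was at 10.47 or above on those other 5, which by these RNAs came from males. The sets of arrays high and low in Xist thus also differ in sex. Omp, the defining marker of mature olfactory neurons, lay between 12.75 and 12.96 on all arrays. The probe set of the endogenous H2BE gene, H2bc21, differed by -0.23 (SE 0.06, limma adjusted p = 0.297), with all arrays labelled H2be-GF below all WT arrays. Whether its probes also read the transgene is not known here, so it does not check the labels, and every direction below rests on the labels alone.

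TAARs are G protein-coupled receptors that detect volatile amines. A TAAR neuron, like a neuron that expresses an olfactory receptor (OR, gene names Olfr), expresses a single receptor gene out of its family, does not express ORs beside it, and uses the same transduction proteins as OR neurons. Most TAAR neurons lie in the dorsal part of the epithelium, and their axons reach a small dorsal group of glomeruli in the olfactory bulb. Taar1, the gene at one end of the cluster, is the member of the family that is not used as an olfactory receptor. The comparison asks whether these receptors, which belong to olfactory neurons but are not ORs, differed between H2be-GF and WT tissue, and whether they moved with the ORs from array to array. In whole tissue, fewer cells that express a receptor and less of its RNA per cell cannot be told apart.

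All of the Taar genes lie side by side on chromosome 10. In RefSeq (GRCm38.p6) the cluster runs Taar1, Taar2, Taar3, Taar4, Taar5, Taar6, the Taar7 genes, the Taar8 genes and Taar9. Promoter windows, from 250 bases before to 50 bases after the start of the gene, were found for 5 of the 6 members, with no entry for Taar4. They were searched on both strands for the homeodomain core TAATTA, its looser form TAATNA, and the Ebf motif CCCNNGGG, all known from OR promoters. TAATTA was in 0 of the 5, against 5.29% of all 32851 promoters and 18.6% of 944 Olfr promoters. CCCNNGGG was also in 0 of the 5, against 13.7% of all promoters and 3.07% of Olfr promoters. TAATNA was in those of 2 members, Taar2 and Taar5, against 26.5% of all promoters and 65.9% of Olfr promoters. The windows around these matches are shown because they are the only matches among the members. Both genes are on the plus strand, capitals mark the motif, and TTATTA is TAATNA read on the opposite strand. TAATNA matches also include every TAATTA match. The number after each gene is the position of the first base of the motif relative to the gene's start.
Taar2, chr10:23938323-23938348, -239: gtgccgggggTAATGAaaacaaaagc
Taar5, chr10:23970593-23970618, -103: aaaagaaataTTATTAatatcaatat
Taar5, chr10:23970608-23970633, -88: aatatcaataTTATTAtgattcttgt
Taar5, chr10:23970635-23970660, -61: gttgttgttgTTATTAttattgtaga
Taar5, chr10:23970638-23970663, -58: gttgttgttaTTATTAttgtagacag
The last pair of Taar5 matches overlap within a run of TTA and GTT repeats. A match says only that these letters stand in the window.

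No member passed the test between the genotypes. Differences are given as H2be-GF minus WT in log2 units, tested with limma and Benjamini-Hochberg adjustment over all probe sets tested. Of the 6 members 0 had an adjusted p under 0.05, where 0.0862% of all probe sets tested did (20 of 23194). At an unadjusted p under 0.05 there were also 0 of 6, where 8.43% of all probe sets passed. The H2be-GF and WT arrays overlapped for all 6 members, whereas they did not overlap for 2.89% of all probe sets. By their group means 4 members were higher in H2be-GF, as were 52.6% of all probe sets, and 2 were lower, with a median difference of 0.10 against 0.01 over all probe sets tested.

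**Figure D1:**
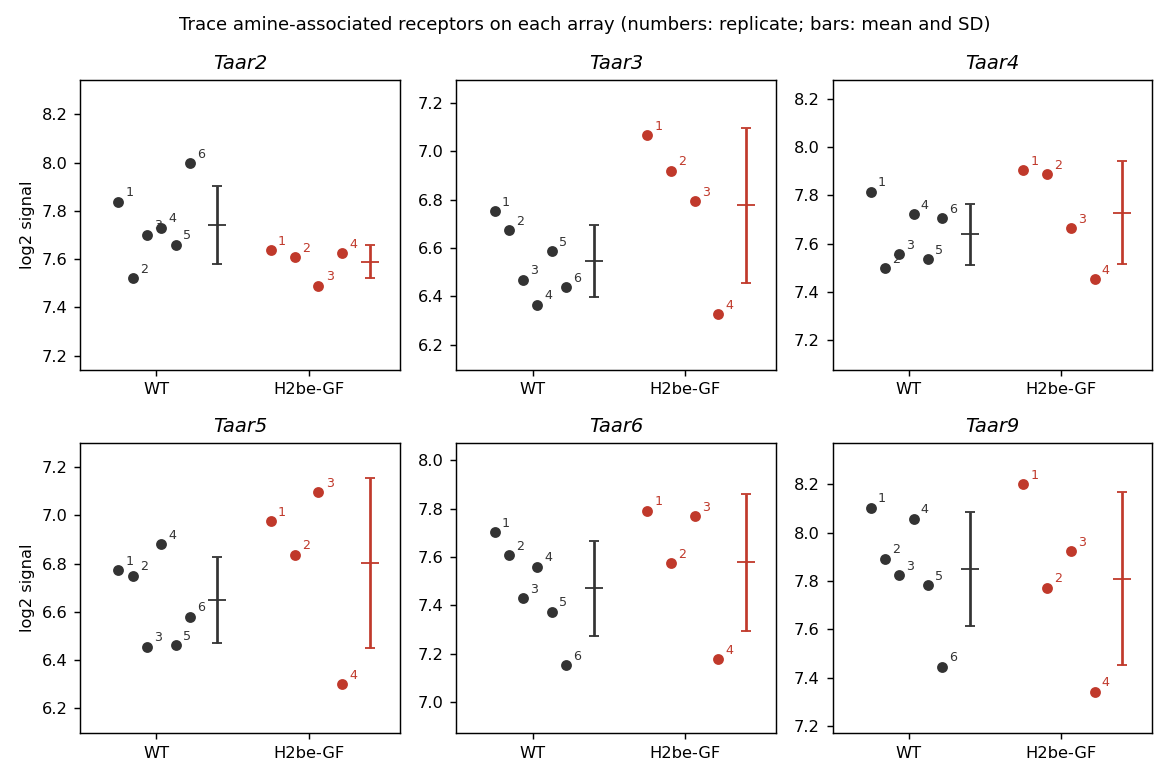
Log2 signal of each of the 6 Taar probe sets on each array, with WT (6 arrays) and H2be-GF (4 arrays) side by side, the replicate number beside each point, and bars for the mean and SD of each genotype. The genotypes overlap for every gene, and H2be-GF 4 is the lowest of the 10 arrays for Taar3, Taar4, Taar5 and Taar9. Signals of different genes are not on a common scale.

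Taar3, a receptor for isoamylamine, had the largest difference by its mean. Its log2 signal was 7.07, 6.92, 6.79 and 6.33 on H2be-GF arrays 1 to 4. On the 6 WT arrays it ran from 6.36 through a median of 6.53 to 6.75. So 3 H2be-GF arrays lay above every WT array and the remaining one below every WT array. The H2be-GF mean was 6.78 ± 0.32 (SD, n = 4) and the WT mean 6.55 ± 0.15 (SD, n = 6), with a difference of 0.23 (SE 0.13, limma adjusted p = 0.678, 95% interval -0.06 to 0.52). Taar3 and Taar5 were the dimmest members, with means over all arrays of 6.64 and 6.71. Both lie below the limit of 7 used for the ORs further on.

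Taar4, a receptor for phenylethylamine, a compound enriched in carnivore urine, showed the same arrangement more weakly. Its signal was 7.90, 7.89, 7.67 and 7.45 on H2be-GF arrays 1 to 4, and on the WT arrays it ran from 7.50 through a median of 7.63 to 7.82. Here 2 H2be-GF arrays exceeded every WT array, 1 lay among them and 1 below them. The difference was 0.09 (SE 0.10, limma adjusted p = 0.854, 95% interval -0.13 to 0.31).

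Taar5, the receptor for trimethylamine, stood at 6.97, 6.84, 7.10 and 6.30 on H2be-GF arrays 1 to 4. The WT arrays ran from 6.46 through a median of 6.66 to 6.88. H2be-GF 1 and 3 lay above all WT arrays and H2be-GF 4 below them. The means, 6.80 ± 0.35 (SD, n = 4) and 6.65 ± 0.18 (SD, n = 6), differed by 0.15 (SE 0.15, limma adjusted p = 0.817, 95% interval -0.17 to 0.47).

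Taar6 stood at 7.79, 7.57, 7.77 and 7.18 on H2be-GF arrays 1 to 4, and the WT arrays ran from 7.15 through a median of 7.49 to 7.70. Its lowest array was WT 6, with H2be-GF 4 next to it. The difference was 0.11 (SE 0.13, limma adjusted p = 0.874, 95% interval -0.19 to 0.40).

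Taar9, the last gene of the cluster, had the widest spread in both genotypes. Its signal was 8.20, 7.77, 7.92 and 7.34 on H2be-GF arrays 1 to 4, and 7.44 through a median of 7.86 to 8.10 on the WT arrays. The highest and the lowest of the 10 arrays were both H2be-GF. The means, 7.81 ± 0.36 (SD, n = 4) and 7.85 ± 0.24 (SD, n = 6), differed by -0.04 (SE 0.16, limma adjusted p = 0.967, 95% interval -0.40 to 0.32). The sign of this difference turned to 0.11 without H2be-GF 4.

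Taar2, the next gene to Taar1, was the exception in its arrangement over arrays. It stood at 7.64, 7.61, 7.49 and 7.63 on H2be-GF arrays 1 to 4, a narrow range, whereas the WT arrays ran from 7.52 through a median of 7.72 to 8.0. H2be-GF 4 was not set apart here, and the highest array was WT 6, which was the lowest for Taar6. The means, 7.59 ± 0.07 (SD, n = 4) and 7.74 ± 0.16 (SD, n = 6), differed by -0.15 (SE 0.09, limma adjusted p = 0.677, 95% interval -0.34 to 0.04).

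Among the H2be-GF arrays, numbers 1 and 4 stood at opposite ends for several members. H2be-GF 1 lay above every WT array for 5 of the 6 members, all but Taar2, and was the highest of all arrays for 4. H2be-GF 4 lay below every WT array for 4 members, and for 0 of the 6 did it exceed the WT mean. Averaged over the 6 members, the signal was 7.60, 7.43, 7.46 and 7.04 on H2be-GF arrays 1 to 4, against 7.22 to 7.50 on the WT arrays. Their mean was 7.38 ± 0.24 (SD, n = 4) for H2be-GF arrays and 7.32 ± 0.11 (SD, n = 6) for WT arrays, which differ by 0.064.

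Leaving out H2be-GF 4 raised the differences and leaving out H2be-GF 1 lowered them for all members but Taar2, which was slightly lower without either. Without H2be-GF 4 they were -0.16 for Taar2, 0.38 for Taar3, 0.18 for Taar4, 0.32 for Taar5, 0.24 for Taar6 and 0.11 for Taar9, and the difference of the averages was 0.18. Without H2be-GF 1 they were -0.17 for Taar2, 0.13 for Taar3, 0.03 for Taar4, 0.095 for Taar5, 0.036 for Taar6 and -0.17 for Taar9, and the difference of the averages was -0.0075. The sign of the small difference between the averages thus rested on H2be-GF 1. No member passed the test without either array. The lowest limma adjusted p was 0.362 (Taar3) without H2be-GF 4 and 0.798 (Taar2) without H2be-GF 1.

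The average over the ORs differed by less than that over the members, although at an unadjusted p single ORs differed in both directions. Of 746 Olfr probe sets with 1 symbol and a mean above 7, 0 were called higher and 6 lower. An unadjusted p under 0.05 was reached by 91 in the direction of H2be-GF and by 80 in that of WT. Over all 23194 probe sets tested, 11 were called higher and 9 lower (0.0862% together). An unadjusted p under 0.05 was reached by 1010 and 945 of them (8.43% together). Adjustment here ran over all probe sets tested, whereas the paper adjusted over OR genes alone. The mean of the 746 Olfr probe sets on an array, called the Olfr mean here, was 8.18, 8.07, 8.08 and 7.96 on H2be-GF arrays 1 to 4. On the WT arrays it was 8.13, 8.17, 7.99, 8.16, 7.97 and 7.98. Both genotypes thus spanned nearly the same range, and their means differed by 0.004 (two-sided exact permutation test over 210 splits, p = 0.952). The array with the lowest Olfr mean was H2be-GF 4 and the one with the highest was H2be-GF 1, the same arrays that bounded the Taar average. At the upper end WT 2 was nearly level in Olfr mean (8.174 against 8.175). Its Taar average was 7.32, against 7.60 on H2be-GF 1.

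Relative to the Olfr mean of the same array, the Taar average stood at -0.69 ± 0.15 (SD, n = 4) for H2be-GF arrays and at -0.75 ± 0.07 (SD, n = 6) for WT arrays, which differ by 0.061. With the Olfr mean subtracted from every probe set, the differences of the members were -0.15 for Taar2, 0.23 for Taar3, 0.09 for Taar4, 0.15 for Taar5, 0.10 for Taar6 and -0.04 for Taar9. Their limma adjusted p-values lay between 0.862 and 0.981, and 0 of 6 passed, where 0.0517% of all probe sets did. The widest of the 95% intervals remained that of Taar9, from -0.32 to 0.23. Since the Olfr mean hardly differed between the genotypes, its subtraction shifts every difference by the same 0.0036 and bears on the errors rather than on the differences.

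**Figure D2:**
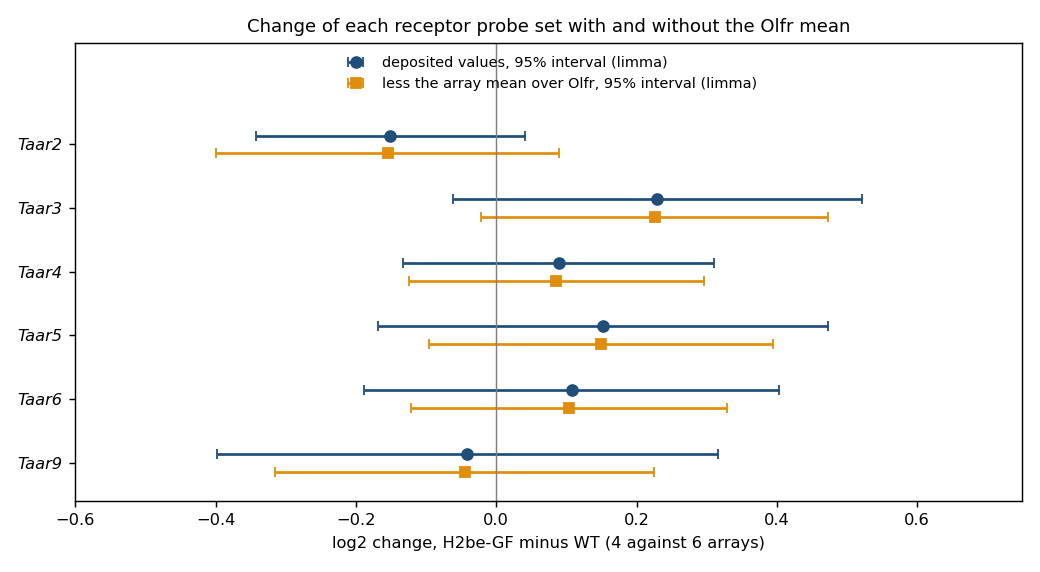
Difference between H2be-GF and WT in log2 units for each of the 6 members with its 95% interval from limma, on the signal as deposited and after subtraction of the array's Olfr mean. Every interval includes 0, and the differences run from -0.15 for Taar2 to 0.23 for Taar3. The subtraction shifts every gene by the same 0.0036, so that the settings can differ only in their intervals.

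From array to array, the Taar average correlated with the Olfr mean. Over the 10 arrays Pearson's r was 0.794 and Spearman's rho was also 0.794, and r was 0.806 after subtraction of the genotype means. Without the 2 arrays farthest from the median Olfr mean, H2be-GF 4 and WT 5, r was 0.678 (n = 8). These are descriptions, since all points share their normalization. The median signal of the array moved too: the Taar average correlated with it at 0.650 and the Olfr mean at 0.843. With the array median subtracted from both, r was 0.723, and 0.526 without H2be-GF 4 and WT 3, the arrays then farthest out. The part of the array median in the relation was not tested further. Among the members, Taar6 and Taar9 each correlated with the array median at 0.80.

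**Figure D3:**
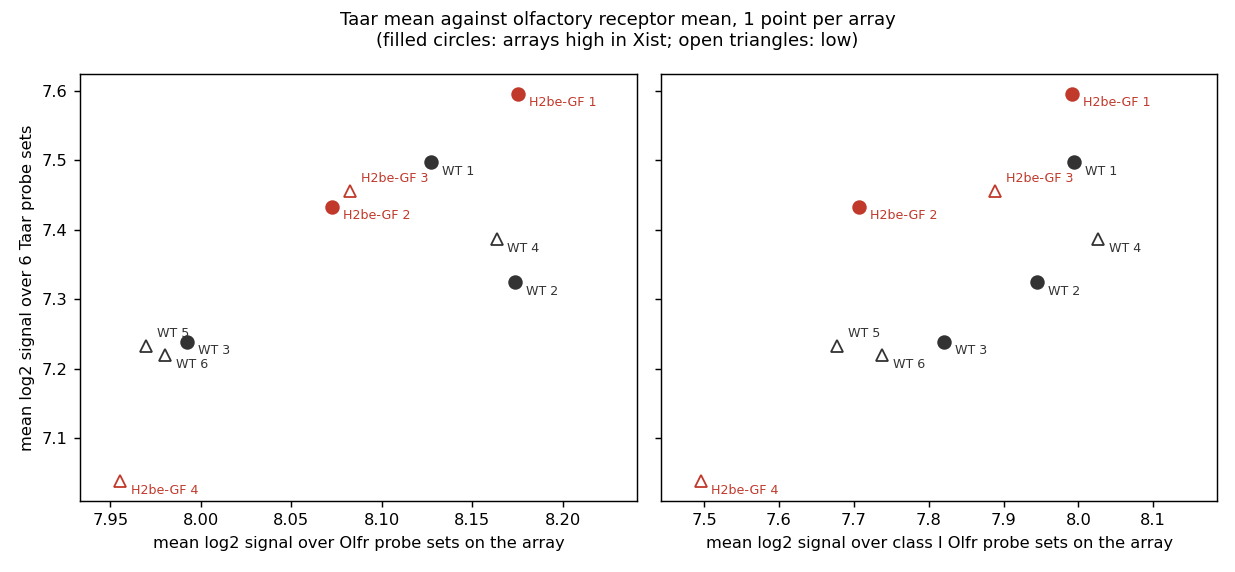
Mean log2 signal over the 6 Taar probe sets (vertical) against the mean over 746 Olfr probe sets (left) and over the 89 Olfr probe sets of class I, the older receptor class, among them (right), 1 point per array, with filled circles for arrays high in Xist and open triangles for arrays low in Xist. H2be-GF 1 lies at the upper right and H2be-GF 4 at the lower left of both panels, and r is 0.794 on the left and 0.783 on the right.

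Gene by gene, the relation to the Olfr mean was closest for Taar5, Taar6 and Taar9 and had a negative sign for Taar2. Over all 23194 probe sets tested, r with the Olfr mean had a median of 0.17 and an upper quartile of 0.45. It was above 0.78 for 3.98% of them. For Taar9, r was 0.82 (permutation p = 0.00194, n = 10) and rho 0.85 (permutation p = 0.00256). For Taar6, r was 0.82 (permutation p = 0.0049, n = 10) and rho 0.82 (permutation p = 0.00608). For Taar5, r was 0.79 (permutation p = 0.00956, n = 10) and rho 0.73 (permutation p = 0.0211). Without the 2 farthest arrays, r was 0.81 for Taar9, 0.74 for Taar6 and 0.63 for Taar5.

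Taar3 and Taar4 were intermediate, with r of 0.53 (permutation p = 0.115, n = 10) and 0.50 (permutation p = 0.14, n = 10), and of 0.40 and 0.20 without these arrays. Taar2 had r of -0.26 (permutation p = 0.473, n = 10). These p-values come from 6 relations. Adjustment over all probe sets was made through the slope on the Olfr mean in a limma fit with genotype as covariate.

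In that fit, the slope was 2.52 for Taar9 in log2 units per unit of the Olfr mean (SE 0.60, limma adjusted p = 0.0545), 2.22 for Taar5 (SE 0.56, limma adjusted p = 0.0653) and 2.08 for Taar6 (SE 0.50, limma adjusted p = 0.0587). None of the 6 members passed, where 2.46% of all probe sets did. At an unadjusted p under 0.05 these 3 of the 6 had a positive slope, where 13.9% of all probe sets tested and 43.7% of the Olfr probe sets behind the mean did. With the Xist sets added to the fit, the adjusted p-values were 0.150 for Taar9, 0.0921 for Taar5 and 0.165 for Taar6, and 0 of 6 passed, where 1.31% of all probe sets did.

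At equal Olfr mean, the differences between the genotypes ran from -0.15 for Taar2 to 0.22 for Taar3, with limma adjusted p-values between 0.571 and 0.908 and 0 of 6 past the threshold, where 0.0949% of all probe sets were.

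The members also moved together among themselves, Taar2 excepted. Over the 10 arrays Taar6 and Taar9 correlated at 0.90 and Taar5 and Taar6 at 0.86, and the 10 pairs without Taar2 ranged from 0.54 to 0.90. The 5 pairs that include Taar2 ranged from -0.47 to 0.24. Set against the mean of the other 5 members, r was 0.86 for Taar6, 0.81 for Taar5, 0.78 for Taar9, 0.75 for Taar4, 0.71 for Taar3 and -0.29 for Taar2. H2be-GF 4, the lowest array for Taar3, Taar4, Taar5 and Taar9, is among the 10 arrays, and the pairs were not computed without it. All were measured in the same pools, so these values describe the 10 arrays and carry no p.

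ORs fall into class I, the older class that mice share with fish and that sits mostly in the dorsal epithelium, and class II. By their MOR family numbers, a split chosen after the values were seen, 89 of the 746 Olfr probe sets were class I and 647 class II, and 10 had no family number. The Taar average correlated at 0.783 with the class I mean and at 0.756 with the class II mean, and at 0.897 and 0.753 after subtraction of the genotype means. Without the arrays farthest out, r over all remaining arrays was 0.511 for class I (H2be-GF 4 and WT 5 left out). For class II it was 0.716 (WT 5 and WT 6 left out), so the order of the classes was not stable. Receptor by receptor, the median r with the Taar average was 0.660 for class I, where 95.5% of probe sets had a positive r, and 0.392 for class II, where 79.8% did. The class I mean itself was 7.99, 7.71, 7.89 and 7.50 on H2be-GF arrays 1 to 4 and 7.68 to 8.03 on the WT arrays, with H2be-GF 4 again the lowest of the 10. The median difference between the genotypes was -0.11 over the class I and 0.03 over the class II probe sets.

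**Figure D4:**
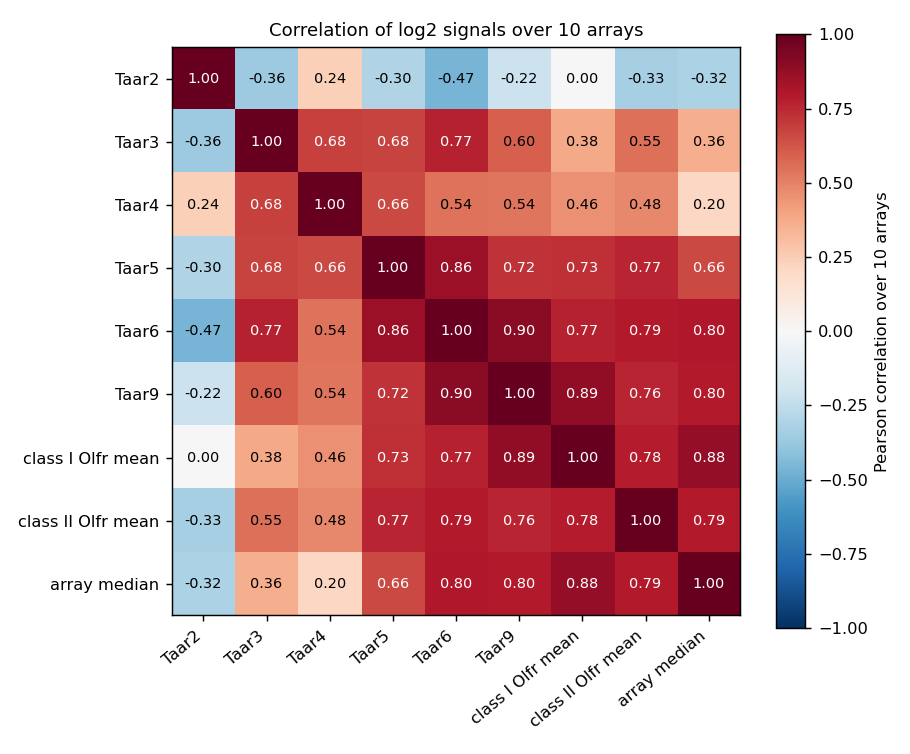
Pearson's r over the 10 arrays between each pair of the 6 members, the class I and class II Olfr means and the median signal of the array, as a grid of coloured cells with the value in each. The cells among Taar3, Taar4, Taar5, Taar6 and Taar9 run from 0.54 to 0.90, while those of Taar2 with the other members run from -0.47 to 0.24.

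Genes most like the Taar average were sought among 21574 other probe sets with 1 symbol, by r after subtraction of the genotype means over the 10 arrays. The 5 closest were Olfr1052 (0.967), Tlnrd1 (0.965), Olfr675 (0.964), Serpinb1c (0.952) and Olfr617 (0.949). Above an r of 0.8 there were 389 probe sets, 1.80% of the candidates, and of the 1007 Olfr probe sets among the candidates 110, or 10.9%, were above it.

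There were 9 remaining Taar probe sets, of which those of the Taar7 and Taar8 copies are uncertain because the copies share sequence. None of the 9 differed between the genotypes by the test, with differences from -0.08 to 0.14 and the lowest limma adjusted p at 0.833. Taar1 had a difference of 0.12, Taar7b 0.01, Taar7d -0.03, Taar7e -0.03, Taar7f -0.02, Taar8b 0.05 and Taar8c 0.01. The probe set shared by several Taar7 genes had a difference of -0.08 and that shared by Taar8 genes 0.14. With the average of the 6 members, r was 0.84 for Taar7e, 0.82 for Taar7d, 0.77 for Taar7f, 0.63 for Taar7b, 0.52 for Taar8b, 0.46 for Taar1 and 0.28 for Taar8c.

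The genes flanking the cluster did not pass the test either. On the side of Taar1, Vnn1 and Vnn3, which encode pantetheinases, had differences of -0.04 and -0.11, and Slc18b1, a polyamine transporter, 0.001. On the side of Taar9, Stx7, a syntaxin of endosomes, had a difference of -0.05, Moxd1 0.05 and Ccn2, a secreted matrix protein, 0.18. The lowest limma adjusted p of these 6 was 0.622. Their r with the Taar average lay between -0.51 for Vnn1 and 0.42 for Stx7. Members other than Taar2 had r of 0.71 to 0.86 with the mean of the other members. After subtraction of the genotype means, r of Stx7 with the Taar average was 0.56. Taar8c, within the cluster, was below Stx7 in r with the Taar average, at 0.28.

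TAAR neurons share their signalling proteins with OR neurons. A list of 20 genes held transduction genes and, beside them, Omp and the receptor transport genes Rtp1, Rtp2 and Reep1. Of these 20 genes, 0 passed the adjusted test and 1, Cnga4, a subunit of the cyclic nucleotide-gated channel, had an unadjusted p under 0.05, with a difference of -0.13 (limma adjusted p = 0.587). The median difference of the 20 was -0.07, with 14 lower and 6 higher. The channel subunit Cnga2 was at -0.12 (limma adjusted p = 0.604), the cyclase Adcy3 at -0.10 (limma adjusted p = 0.698), the G protein Gnal at 0.06 (limma adjusted p = 0.892) and Omp at -0.10 (limma adjusted p = 0.659). The genotypes did not overlap for 4 of the 20, where 2.89% of all probe sets did not. All H2be-GF arrays lay below all WT arrays for Omp, Cnga2 and the receptor transport protein gene Rtp1 (-0.11), and above them for the chloride transporter gene Slc12a2 (0.13), of which the last pair were chosen after their values were seen.

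The summed linear signal of 10 mature neuron markers, on a log2 scale, was 15.35 to 15.42 in H2be-GF and 15.44 to 15.52 in WT, with 9 of the 10 lower by their means, 0 called and none at 0 on any array. All of these markers but Umodl1 and Slc17a6 are also in the list of the paragraph before, so the lists are not separate results. The mean log2 signal of these markers correlated with the Taar average at -0.182 over the 10 arrays. With every value set relative to the mean of these markers, the Taar average was higher in H2be-GF by 0.14 rather than 0.064, and the Olfr mean by 0.078 rather than 0.0036 (two-sided exact permutation p = 0.205 over 210 splits). The part of the mature markers in the Taar differences was not tested further.

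Among 17 genes of receptor choice, Lhx2, a homeodomain factor of olfactory neurons, rose by 0.37 (SE 0.06, limma adjusted p = 0.0425), from 11.09 ± 0.06 (SD, n = 6) in WT to 11.46 ± 0.03 (SD, n = 4) in H2be-GF. It was the only one of the 17 to pass, where 0.0862% of all probe sets did. The factors Ebf1 and Ebf3, named after their values were seen, were the others with an unadjusted p under 0.05, each with a difference of 0.14 (limma adjusted p = 0.576 and 0.581). The Lhx2 partner Ldb1 was at -0.10 (limma adjusted p = 0.668) and the homeodomain factor Emx2 at 0.11 (limma adjusted p = 0.685). The median over the 17 was 0.02.

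For the zones of the epithelium, 0 of 3 dorsal markers passed. Nqo1, an oxidoreductase of dorsal neurons, was at -0.14 (limma adjusted p = 0.662), and Acsm4, an acyl-CoA synthetase of the dorsal zone, at -0.12 (limma adjusted p = 0.672), while Robo2, the third, was at 0.11 (limma adjusted p = 0.719). Of 5 ventral markers 0 passed, with 4 higher and 1, Nfix, lower by its mean (-0.06). The adhesion molecule Ncam2 had the smallest p, with a difference of 0.26 (SE 0.05, limma adjusted p = 0.147) and no overlap between the genotypes, as was the case for 2.89% of all probe sets. Nrp2, a semaphorin receptor, was at 0.10 (limma adjusted p = 0.689). The mean log2 signal of the dorsal markers correlated with the Taar average at 0.656 and that of the ventral markers at 0.148.

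Markers of other cells were measured beside them. Of 4 markers of respiratory ciliated cells 3 were lower at an unadjusted p under 0.05, 0 were called, and over all probe sets tested 945 of 23194 were lower at that threshold. Their summed signal was 11.50 to 11.61 in H2be-GF and 11.65 to 11.78 in WT. The summed signal of 6 markers of globose basal cells, the dividing precursors of the neurons, overlapped between the genotypes, at 11.56 to 11.77 in H2be-GF and 11.59 to 11.82 in WT, and their mean log2 signal correlated with the Taar average at 0.806. That of 7 immature neuron markers correlated with it at 0.541. None of the measured markers of immature neurons, globose and horizontal basal cells, sustentacular cells, ensheathing glia, leukocytes, red cells, microvillous cells or GC-D neurons was called. Those with an unadjusted p under 0.05, named after their values were seen, were Alas2 of red cells (-0.32), Ptprc of leukocytes (0.27), and Neurog1 (0.16) and Hes6 (-0.14) of globose basal cells. No marker in these lists was at 0. Their part in the Taar signal was not tested.

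Within the sets of arrays that differ in Xist, the differences between the genotypes were as follows. On the 5 arrays high in Xist they were 0.36 for Taar3, 0.27 for Taar4, 0.25 for Taar5, 0.10 for Taar6, 0.05 for Taar9 and -0.06 for Taar2. On the 5 arrays low in Xist they were 0.10 for Taar3, -0.10 for Taar4, 0.06 for Taar5, 0.11 for Taar6, -0.13 for Taar9 and -0.24 for Taar2. By an interaction term, 0 of 6 members differed in this respect between the sets after adjustment or at an unadjusted p under 0.05, where 0% and 2.92% of all probe sets did. The difference between the sets themselves was largest for Taar3, which was 0.28 higher on arrays high in Xist (SE 0.11, limma adjusted p = 0.847). No member passed this test after adjustment, where 0.427% of all probe sets did, and Taar3 alone had an unadjusted p under 0.05, where 5.24% did. A set holds 5 arrays, and the correlation with the Olfr mean was not computed within so few.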

How the data were processed

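RNA of whole MOE was measured on Mouse Gene 1.0 ST arrays of Affymetrix. The authors checked the scans for outliers, used Affymetrix Expression Console to summarise probe sets (IterPLIER, sketch-quantile normalization), and deposited log2 values, which ran from 0 to 14.2, with 95 to 157 zeros per array. Quantile normalization hides a change shared by most genes, and dim probe sets are less certain. Tool versions and genome build are not given in the sources used here. Any 2 arrays correlated at 0.969 to 0.988, and the number of arrays limits the precision.

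Groups came from the labels. Symbols came from the platform annotation, with 21789 probe sets of 1 symbol, 1621 of several and 12146 of none, and 21698 matched RefSeq (GRCm38.p6). Members and gene lists were chosen with earlier results of these data known. All 6 members were named whatever their values, as were other Taar genes, 3 flanking genes on each side, key transduction, receptor choice and zone genes, called list members or otherwise up to 2 of the smallest p per list, and the 5 genes most like the members. The test was that of limma 3.58.1 (lmFit and eBayes under R 4.3.3, two-sided, without covariates) over 23194 probe sets, with a threshold of 0.05. Correlations used 100000 permutations. Where the procedure was tested on simulated data for H2be-GF against WT over 23194 probe sets, it called 16% of changes of 0.3 (log2), 68% of 0.6 and 94% of 1. It also made 11 false calls. The simulated spreads were those of all probe sets tested, so the shares are not specific to the members. Alternatives covered scaling, filters, the variance model, an added constant, the replicate number, Xist sets and leaving out arrays. Receptor class means and an average without Taar2 were added after seeing the data.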

Additional observations from a re-analysis of the deposited data

Results flagged for a closer look

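Of 36 groups of values tested for a single array far from the rest, over the Taar probe sets and array means, 1 was set apart, where chance gives about 1 in 20. In H2be-GF, Taar7b was 9.05 on array 1, the next highest array was at 8.81, and this gap was 0.866 of the range of the 4 arrays. WT 1 stood at 9.04 and WT 2 at 8.98 for Taar7b, so H2be-GF 1 was set apart only from the other H2be-GF arrays. Signal of this probe set can come from RNA of the near-identical Taar7 copies. H2be-GF 1 was the highest of all 10 arrays for Taar3, Taar4, Taar6 and Taar9.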

How the results depend on the processing

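None of the 6 members was called under any of the 23 alternative fits, where adjusted p-values reached down to 0.346 for Taar3. The difference of Taar9, -0.04, turned to 0.033 when centred on mature neuron markers and to 0.047 within arrays high in Xist, and ranged from -0.17 to 0.11 with 1 array left out. That of Taar4 turned to -0.10 within arrays low in Xist. The difference of the Taar average, 0.064, ranged from -0.0075 to 0.18 with 1 array left out and was -0.033 within arrays low in Xist. The difference of the Olfr mean, 0.004, was -0.012 after a second quantile normalization, -0.019 within arrays low in Xist, 0.078 when centred on mature neuron markers, and -0.031 to 0.042 with 1 array left out. The correlation of the Taar average with the Olfr mean was 0.608 after a second quantile normalization and 0.739 to 0.890 with 1 array left out. Its direction held in all of these. The cause was not tested.

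The 20 probe sets called became 12 when centred on the Olfr mean, 39 when centred on mature neuron markers, 36 above a mean of 7, 114 with a trended robust variance, 0 within arrays high in Xist and 0 within arrays low in Xist, which hold fewer arrays, and 11 to 19 with 1 array left out, with 11 without H2be-GF 1 and 13 without H2be-GF 3. Above a mean of 7, Taar3 and Taar5 drop out.

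Replicate numbers did not pair the arrays: same-numbered arrays deviated from their group means with correlations of 0.53, 0.22, -0.42 and 0.26. With the replicate block over the shared numbers, 5 probe sets were called, the difference of the Olfr mean was -0.043 (exact p = 0.625), that of the Taar average was 0.019, and those of the members were -0.11 for Taar2, 0.21 for Taar3, 0.08 for Taar4, 0.087 for Taar5, 0.0034 for Taar6 and -0.16 for Taar9.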
